A study of Mus musculus with 10 samples.

Results

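The Hox genes of the HoxA, HoxB, HoxC and HoxD clusters were examined as markers of hindbrain tissue in RNA-seq of mouse brains. All rows of the count table annotated as protein-coding and named Hox with a cluster letter and a paralog number were taken, which gave 25 of the 25050 genes listed. Of these, 11 have paralog numbers 1 to 4, 10 have numbers 5 to 8 and 4 have numbers 9 to 13. The reference annotation holds 39 Hox genes, and the other 14 were not analysed here.

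The study compared brains of mice that lack the transporter gene Abcc5 (Abcc5-/-, called knockout here) with brains of wildtype mice (Abcc5+/+), all on the FVB/NJ strain background, with 5 libraries in each group. Per the labels, each library came from a whole brain that was frozen on dry ice after killing with CO2, and polyadenylated RNA was sequenced with a kit that does not mark strand. The labels give neither age nor sex, and do not describe the Abcc5 allele. They number the brains within a group but do not say how animals were bred or housed, so the p-values measure the spread between these 10 libraries. Levels are in CPM, the usual unit of counts normalised to library size, with library sizes scaled by the trimmed mean of M-values (TMM), and are given as mean ± SD.

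Hox genes encode homeodomain transcription factors that give cells their position along the head-to-tail axis. Within each cluster the genes lie in the order of the regions that express them: genes with low paralog numbers reach forward into the hindbrain, and genes with high numbers are used in the spinal cord and the trunk. Retinoic acid switches the early members on, Polycomb and Trithorax proteins keep the pattern, and Pbx and Meis proteins bind DNA together with Hox proteins. The telencephalon and midbrain, and the most anterior part of the hindbrain from which the cerebellum forms, lack Hox expression during development. In the adult brain Hox transcripts are therefore known as marks of the medulla and pons and of the cord behind them.

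The promoters of 4 members are printed to show the sequence next to the start sites of genes that behaved differently between libraries. Hoxd3 and Hoxb4 stand for the low paralog numbers, Hoxa5 for the most abundant class and Hoxb8 for paralogs 6 to 8. Each is the 250 bases upstream of the RefSeq start site in build GRCm38.p6, read 5′ to 3′ on the strand of the gene. The windows are chr2:74711743-74711992 (+) for Hoxd3, chr11:96318017-96318266 (+) for Hoxb4, chr6:52204588-52204837 (-) for Hoxa5 and chr11:96281655-96281904 (+) for Hoxb8. Capitals mark a match to AGGTCA, a half-site of nuclear receptors such as those for retinoic acid, in Hoxd3 and Hoxb4, and to TGATNNAT, a motif bound by Hox and Pbx together, in Hoxb8. All 3 matches read on the reverse strand, and Hoxa5 had no match to either motif.
Hoxd3: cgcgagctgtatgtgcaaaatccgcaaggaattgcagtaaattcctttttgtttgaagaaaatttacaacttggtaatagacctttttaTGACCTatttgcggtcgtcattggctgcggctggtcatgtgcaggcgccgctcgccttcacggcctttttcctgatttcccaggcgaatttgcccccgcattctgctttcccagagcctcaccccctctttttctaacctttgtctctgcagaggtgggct
Hoxb4: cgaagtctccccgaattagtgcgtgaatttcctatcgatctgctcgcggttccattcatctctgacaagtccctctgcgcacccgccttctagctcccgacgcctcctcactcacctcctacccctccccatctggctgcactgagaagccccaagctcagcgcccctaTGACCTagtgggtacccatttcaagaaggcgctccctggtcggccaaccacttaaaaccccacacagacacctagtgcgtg
Hoxa5: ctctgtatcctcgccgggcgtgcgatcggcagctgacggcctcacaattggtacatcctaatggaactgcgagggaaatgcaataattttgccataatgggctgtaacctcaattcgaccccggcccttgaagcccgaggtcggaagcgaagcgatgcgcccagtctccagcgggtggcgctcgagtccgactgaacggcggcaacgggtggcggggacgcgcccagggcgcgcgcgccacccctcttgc
Hoxb8: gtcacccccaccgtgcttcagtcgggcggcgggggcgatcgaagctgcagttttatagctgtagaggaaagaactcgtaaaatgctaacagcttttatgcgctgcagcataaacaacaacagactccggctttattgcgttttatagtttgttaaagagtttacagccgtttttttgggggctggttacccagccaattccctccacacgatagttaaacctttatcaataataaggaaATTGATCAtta

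In Hoxd3 the match lay 161 to 156 bases before the start, in Hoxb4 81 to 76 and in Hoxb8 11 to 4. Of the 25 members, 15 had a promoter in the RefSeq table. AGGTCA, searched on both strands, was found in 5 of them (33.3%; Hoxb4, Hoxc4, Hoxd3, Hoxd4 and Hoxd8), against 14.0% of all 32851 promoters of the same length. TGATNNAT was found in 2 of 15 (13.3%; Hoxa2 and Hoxb8) against 7.68%, and the Meis motif TGACAG in 2 of 15 (Hoxa2 and Hoxa3) against 15.9%. In all, 9 motifs were searched, and a match describes the letters, not a bound site. The median GC content was 58% in the 15 Hox promoters and 52.4% in all promoters.

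In the coordinates of the table, whose genome build is not named, the HoxA members span 52105366 to 52181088 on chromosome 6, HoxB 96132771 to 96217003 on chromosome 11, HoxC 102828688 to 102867274 on chromosome 15 and HoxD 74506367 to 74603200 on chromosome 2. The clusters held 8, 8, 3 and 6 members. The rows of 15 members overlap another listed gene, and the reads of overlapping genes could not be parted by strand.

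Abcc5 itself, which checks the labels, had 311.1 ± 12.6 CPM in wildtype and 218.8 ± 5.95 CPM in knockout libraries (n = 5 each, edgeR adjusted p 6.35e-06), and the groups did not overlap. Total counts ran from 7731294 to 23588335, with wildtype 1 and knockouts 2 and 4 the deepest at 19795743 or more and the other 7 at 11479995 or fewer. Knockout 3, labelled a whole brain like the others, stood apart in its cerebellar markers, for a cause that was not tested. Its summed level of 10 cerebellar granule cell genes was 171.4 CPM against 1280 to 1523 CPM in the other 9 libraries, and its Purkinje cell genes summed to 1051 CPM against 2261 to 2539. All 11 granule cell rows and all 9 Purkinje rows were lowest in that library, and 1 row named Cbln1 was at 0. Its 8 telencephalic genes summed to 305.5 CPM against 178.6 to 240.6, and its Abcc5 level of 221.5 CPM lay within the knockout range. Each Hox result is therefore given with and without knockout 3.

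Hox transcripts were rare but present in each of the other 9 libraries, and nearly missing from knockout 3. The summed Hox level was 15.9, 15.4, 13.4, 16.2 and 20.3 CPM in wildtypes 1 to 5. In knockouts 1 to 5 it was 7.99, 24.5, 0.528, 28.0 and 21.4 CPM. Knockouts 2, 4 and 5 lay above every wildtype library, and knockouts 1 and 3 lay below every one. These sums rest on 104 to 315 counts in wildtype libraries and on 69, 538, 4, 662 and 175 counts in knockouts 1 to 5. Exact Poisson 95% intervals, which cover counting error only, were 6.22 to 10.1 CPM for knockout 1 and 0.144 to 1.35 CPM for knockout 3. Those of knockouts 2 and 5, 22.5 to 26.7 and 18.3 to 24.8 CPM, overlapped that of wildtype 5, 17.4 to 23.6 CPM.

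The group means were close while the spread was not. Wildtype libraries had 16.2 ± 2.51 CPM and knockout libraries 16.5 ± 11.7 CPM (SD, n = 5 each). Without knockout 3 the knockout mean was 20.5 ± 8.76 CPM (n = 4). The difference of the means, 0.239 CPM, or 4.23 CPM without knockout 3, was smaller than the spread between knockout libraries, and no p is given for a sum over members. In bulk tissue, fewer cells of a type and less RNA per cell cannot be told apart.

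**Figure D1:**
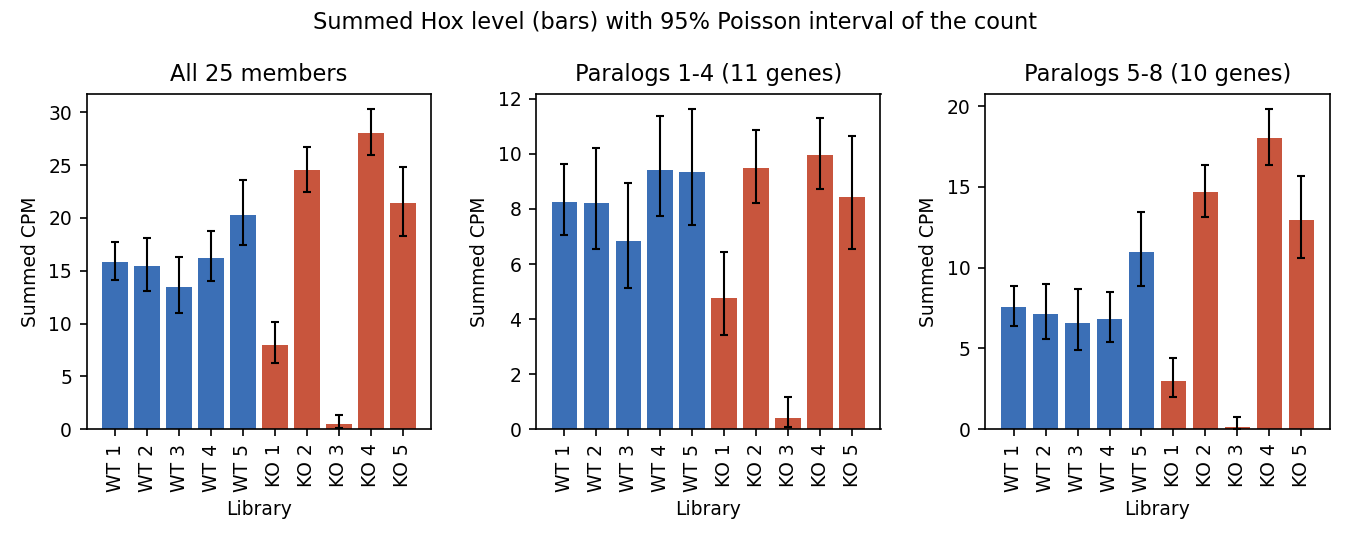
Summed CPM (vertical axis) in each library for all 25 Hox genes, for paralogs 1-4 and for paralogs 5-8, with wildtype (WT) bars in blue, knockout (KO) bars in red and 95% Poisson intervals of the count as error bars. Knockout 3 is near 0 in all panels, and knockouts 2, 4 and 5 exceed all wildtype libraries in the family sum and in paralogs 5-8. In both of these panels the intervals of knockouts 2 and 5 overlap that of wildtype 5. In paralogs 1-4, knockouts 2, 4 and 5 are at 8.42 to 9.95 CPM against at most 9.42 CPM in wildtype.

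In knockout 3, 22 of the 25 members were at 0, and Hoxb4 and Hoxb5 had 1 count each. At the mean level of the other libraries 137 counts were expected at its depth. Its summed level was 2.91% of that mean. Members with at least 1 count numbered 21, 18, 14, 17 and 20 in wildtypes 1 to 5 and 14, 24, 3, 23 and 19 in knockouts 1 to 5. Brought to the depth of the shallowest library, which is knockout 3, the expected numbers were 14 to 19.6 in wildtypes and 13.6, 21.9, 20.6 and 18.9 in knockouts 1, 2, 4 and 5. Wildtype 3, at nearly the same depth as knockout 3, had 14 members. Of the 5 Hox genes that passed the filter on low counts and were tested, 4 were under 20% of the lowest other library. Over all 14526 tested genes this share was 0.379% (55 genes). Hoxc4, Hoxd3 and Hoxa5 were at 0 and Hoxb5 had 1 count. Hoxb4, the fifth gene, had 0.132 CPM in knockout 3 against at least 0.463 CPM elsewhere.

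**Figure D2:**
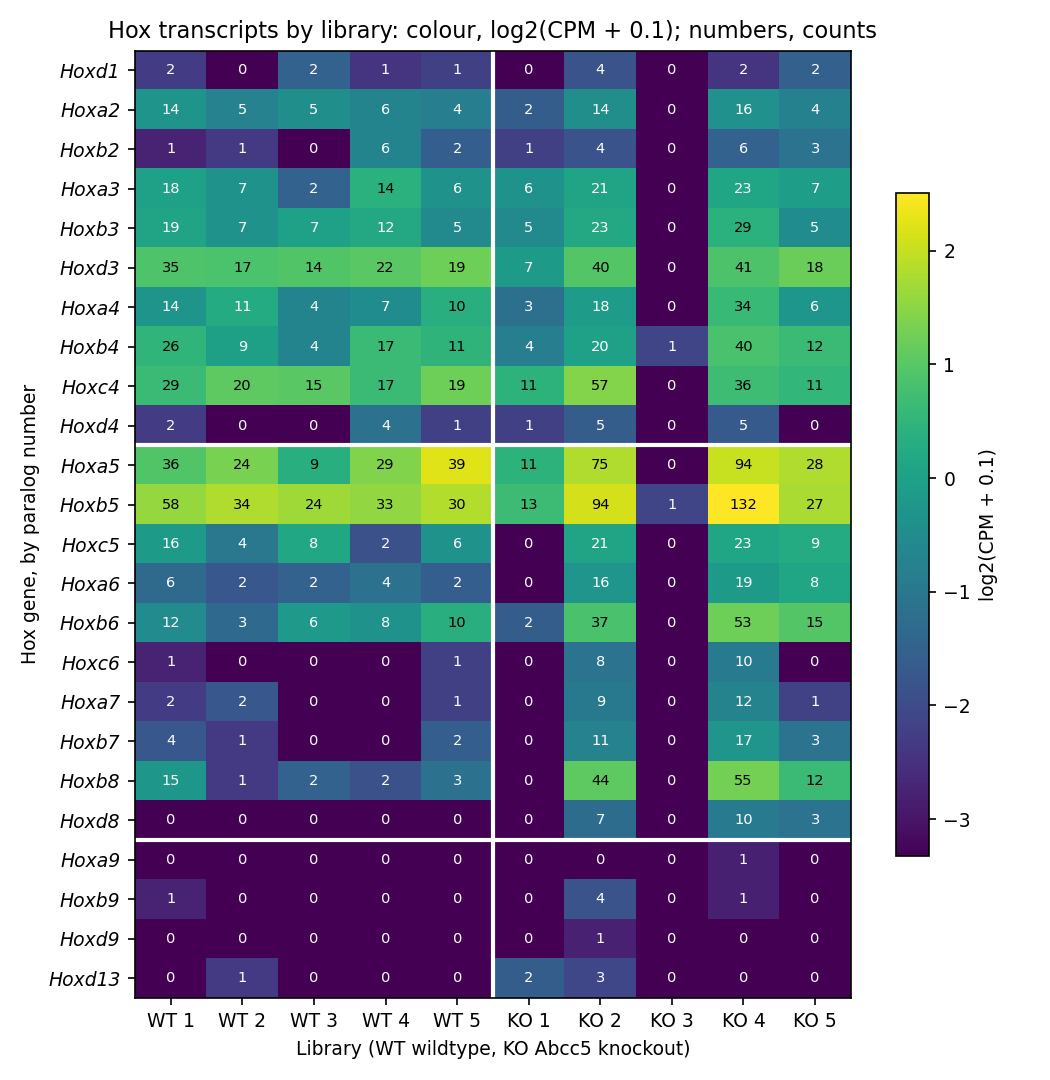
Level of the Hox genes reported by name (rows, ordered by paralog number) in each library (columns), with colour for log2(CPM + 0.1) and the count printed in each cell; white lines part the genotypes and the paralog classes 1-4, 5-8 and 9-13. Among the genes drawn, knockout 3 has a count in Hoxb4 and Hoxb5 alone. The summed level of paralogs 6 to 8 is highest in knockouts 2, 4 and 5. Their summed count in knockout 5 is 42, near the 40 of the deeper wildtype 1.

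The anterior class, paralogs 1 to 4, summed to 8.26, 8.22, 6.84, 9.42 and 9.33 CPM in wildtypes 1 to 5 and to 4.75, 9.48, 0.396, 9.95 and 8.42 CPM in knockouts 1 to 5. Knockouts 2, 4 and 5 lay within or just above the wildtype range, and knockouts 1 and 3 below it. The means were 8.41 ± 1.05 CPM in wildtype and 6.60 ± 4.02 CPM in knockout libraries (n = 5 each), and 8.15 ± 2.36 CPM in knockouts without knockout 3 (n = 4).

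Hoxd3 acts with its paralogs in shaping the first vertebrae. It had 1.76, 1.70, 1.81, 1.92 and 2.22 CPM in wildtypes and 0.811, 1.82, 0, 1.74 and 2.20 CPM in knockouts. Only knockouts 1 and 3 fell outside the wildtype range. Its log2 fold change was -0.33 (SE 0.336, edgeR adjusted p 0.697), and -0.14 (adjusted p 0.778) without knockout 3.

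Hoxc4, the most anterior HoxC gene, had 1.46, 2.00, 1.94, 1.48 and 2.22 CPM in wildtypes and 1.27, 2.60, 0, 1.52 and 1.34 CPM in knockouts. The groups overlapped, with knockout 2 the highest library of all. Its log2 fold change was -0.14 (SE 0.361, edgeR adjusted p 0.911), and it turned to 0.060 without knockout 3.

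Hoxb4, known for expanding blood stem cells when overexpressed, had 1.31, 0.902, 0.516, 1.48 and 1.28 CPM in wildtypes and 0.463, 0.911, 0.132, 1.69 and 1.46 CPM in knockouts. Knockouts 2 and 5 lay inside the wildtype range. Its log2 fold change was -0.098 (SE 0.374, edgeR adjusted p 0.944) and turned to 0.064 without knockout 3.

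Hoxb3, a gene of the caudal hindbrain, had 0.956, 0.701, 0.903, 1.05 and 0.583 CPM in wildtypes and 0.579, 1.05, 0, 1.23 and 0.610 CPM in knockouts. Its groups overlapped too, and only knockout 3 lay far from the rest. Outside knockout 3, where these genes were at 0, Hoxa4 ran from 0.347 to 1.44 CPM. Hoxa3, which is needed to form the thymus and parathyroid, ran from 0.258 to 1.22 CPM there. Hoxa2, which sets the identity of the second branchial arch, ran from 0.232 to 0.705 CPM. Hoxb2, which acts in the facial motor neurons, Hoxd4 and Hoxd1 had 24, 18 and 14 counts in all 10 libraries together.

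Paralog group 5, which marks the caudal medulla and the cervical cord, held the most abundant members. Hoxb5, which acts in the neural crest of the gut, had 2.92, 3.41, 3.10, 2.88 and 3.5 CPM in wildtypes and 1.51, 4.28, 0.132, 5.59 and 3.30 CPM in knockouts. Knockouts 2 and 4 were above every wildtype, and knockouts 1 and 3 below. Its log2 fold change was 0.19 (SE 0.364, edgeR adjusted p 0.864), and 0.40 (adjusted p 0.357) without knockout 3.

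Hoxa5, needed for the lung and for the phrenic motor neurons that drive breathing, had 1.81, 2.41, 1.16, 2.53 and 4.55 CPM in wildtypes. Its knockout values were 1.27, 3.42, 0, 3.98 and 3.42 CPM. The groups overlapped, and the highest library was wildtype 5. Its log2 fold change was 0.23 (SE 0.421, edgeR adjusted p 0.854), and 0.44 (adjusted p 0.422) without knockout 3. With 3 counts as the floor for a library at 0, Hoxa5 was at least 6.89-fold lower in knockout 3 than the mean of the other 9, Hoxd3 at least 4.48-fold and Hoxc4 at least 4.45-fold. Hoxc5 had a mean of 0.683 CPM over the libraries other than knockout 3 and no count in knockout 1.

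Per kilobase of exon in the reference annotation, the mean over the 5 wildtype libraries was highest for Hoxa5, at 1.33 CPM per kb, and next for Hoxb5, at 1.13. Hoxc4, Hoxa4 and Hoxd3 followed at 0.709, 0.514 and 0.449, Hoxb4, Hoxb6, Hoxa2 and Hoxa6 had 0.428, 0.361, 0.320 and 0.307, and Hoxb8 had 0.124 CPM per kb. Hoxd4 had no length in the annotation. Neighbours in this order were not tested against each other.

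Paralog groups 6 to 8, which are used mainly in the spinal cord, differed widely between libraries. They are a part of the planned class of paralogs 5 to 8 and were summed apart as an addition to the planned classes. Their 7 members summed to 2.01, 0.902, 1.29, 1.22 and 2.22 CPM in wildtypes 1 to 5 and to 0.232, 6.01, 0, 7.46 and 5.13 CPM in knockouts 1 to 5. Knockouts 2, 4 and 5 had over 2 times the level of the highest wildtype library, while knockouts 1 and 3 were below the lowest. The means were 1.53 ± 0.560 CPM in wildtype and 3.77 ± 3.43 CPM in knockout libraries (n = 5 each), and 4.71 ± 3.13 CPM in knockouts without knockout 3. Paralogs 5 to 8 together summed to 7.55, 7.11, 6.58, 6.80 and 10.97 CPM in wildtypes and to 3.01, 14.7, 0.132, 18.0 and 12.9 CPM in knockouts, with the same libraries high and low. Their means were 7.80 ± 1.81 and 9.75 ± 7.75 CPM, and 12.2 ± 6.45 CPM without knockout 3.

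Hoxb6 had 0.604, 0.301, 0.774, 0.698 and 1.17 CPM in wildtypes and 0.232, 1.69, 0, 2.25 and 1.83 CPM in knockouts. Knockouts 2, 4 and 5 were above all wildtypes and knockouts 1 and 3 below all. It did not pass the filter on low counts in the main test. It passed when any 1 of wildtypes 1 to 4 or knockouts 1 and 3 was left out, and was not called. The edgeR adjusted p ran from 0.0746 without knockout 3 (log2 fold change 1.30) to 0.486 without wildtype 2. Its level reached 1.17 CPM or more only in wildtype 5 and knockouts 2, 4 and 5, so it entered these tests through libraries where it was high.

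Hoxb8, whose loss causes excessive grooming in mice, showed the same order more sharply. Its counts were 15, 1, 2, 2 and 3 in wildtypes and 0, 44, 0, 55 and 12 in knockouts. As levels these were 0.755, 0.10, 0.258, 0.174 and 0.350 CPM in wildtypes and 0, 2.00, 0, 2.33 and 1.46 CPM in knockouts. Knockouts 2, 4 and 5 exceeded all wildtypes, and knockouts 1 and 3 had no count. Hoxb8 overlaps Hoxb7, so the reads of the pair may be partly shared or dropped.

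Hoxd8 had no count in any wildtype library and 0, 7, 0, 10 and 3 counts in knockouts 1 to 5. Hoxc6, a gene of the motor neurons that serve the forelimb, had 1, 0, 0, 0 and 1 counts in wildtypes and 0, 8, 0, 10 and 0 in knockouts. Hoxb7 had 4, 1, 0, 0 and 2 counts in wildtypes and 0, 11, 0, 17 and 3 in knockouts. Hoxa7 had 27 and Hoxa6 had 59 counts in all libraries, most of them in knockouts 2 and 4, which are also the deepest knockout libraries. For all of these genes the highest level was in knockout 2, 4 or 5, and knockouts 1 and 3 had no count.

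The posterior class, paralogs 9 to 13, was at the edge of detection. Hoxa9, Hoxb9, Hoxd9 and Hoxd13, genes of the lumbar cord, limb and tail, had 14 counts in all 10 libraries together. Of these, 8 were in knockout 2 (4 of Hoxb9, 3 of Hoxd13 and 1 of Hoxd9). No other library had more than 2, which is under the floor of 3 counts.

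The make-up of the Hox signal differed between libraries as well as its amount. Paralogs 5 to 8 held 47.6%, 46.1%, 49.0%, 41.9% and 54.0% of the Hox counts in wildtypes 1 to 5 and 37.7%, 59.9%, 25%, 64.2% and 60.6% in knockouts 1 to 5. Paralogs 6 to 8 alone held 12.7%, 5.84%, 9.62%, 7.53% and 10.9% in wildtypes, and 2.90%, 24.5%, 0%, 26.6% and 24% in knockouts. For both shares, knockouts 2, 4 and 5 were above the wildtypes and knockout 1 was below them. For paralogs 5 to 8 the exact binomial 95% interval of knockout 1, 26.3% to 50.2%, overlapped that of wildtype 4, 34.8% to 49.4%. Those of knockouts 2, 4 and 5, which began at 55.6%, 60.4% and 52.9%, overlapped that of wildtype 5, 46.3% to 61.6%. For paralogs 6 to 8 the share of knockout 1 rests on 2 counts. The value of knockout 3 rests on 4 counts, and its exact binomial 95% interval for paralogs 6 to 8 reached 60.2%.

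The shares were also compared between libraries of similar depth. Among the deepest libraries, paralogs 6 to 8 held 24.5% and 26.6% in knockouts 2 and 4 against 12.7% in wildtype 1. Among the shallower libraries knockout 5 had 24%, with an interval of 17.9% to 31.0%, against 5.84% to 10.9% in wildtypes 2 to 5, and knockout 1 had 2.90%, with an interval of 0.353% to 10.1%. The mean share was 9.32% ± 2.71 in wildtype and 15.6% ± 13 in knockout libraries (n = 5 each), and 19.5% ± 11.1 in knockouts without knockout 3 (n = 4). With and without knockout 3, the spread among knockouts was larger than the difference.

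**Figure D3:**
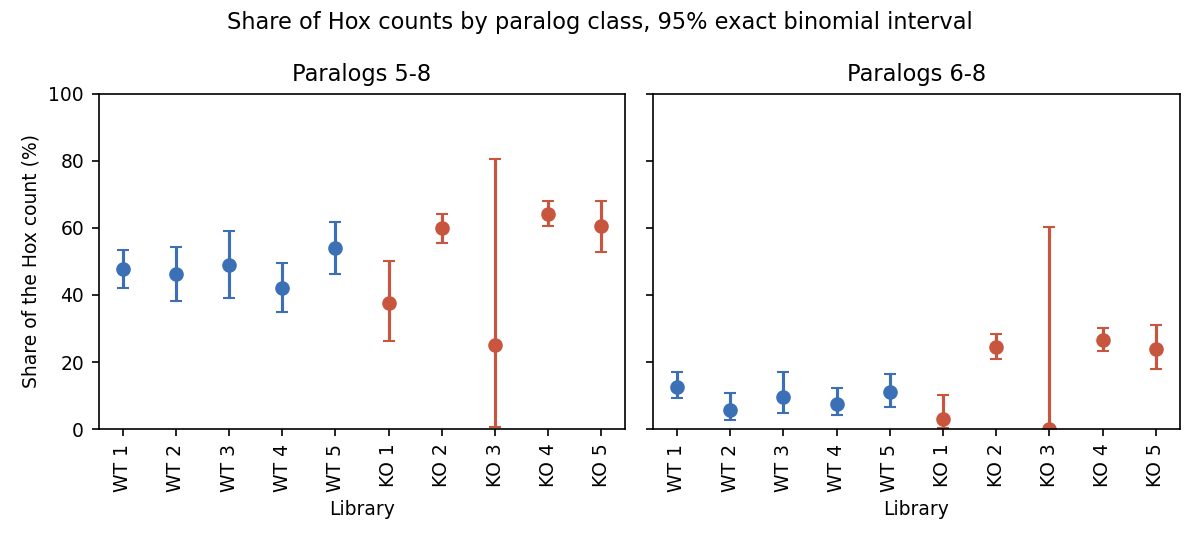
Share of the Hox count (vertical axis, percent) that came from paralogs 5-8 and from paralogs 6-8 in each library, with exact binomial 95% intervals; wildtype in blue, knockout in red. Paralogs 6-8 hold 24% to 26.6% in knockouts 2, 4 and 5 and at most 12.7% in wildtype libraries.

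None of the 5 Hox genes that passed the filter on low counts was called in the main test of genotype. By edgeR's quasi-likelihood test with Benjamini-Hochberg adjustment, 0 of the 5 tested members had an adjusted p under 0.05, where 1.18% of the 14526 tested genes did (31 higher and 140 lower). At an unadjusted p under 0.05 there were also 0 of 5, against 14.8% of all tested genes, and limma-voom called 0. DESeq2 gave no adjusted p for the 5 genes, and none had an unadjusted p under 0.05 there. The median log2 fold change of the 5 was -0.098, against 0.0042 over all tested genes. In none of the 5 did the groups separate without overlap, against 4.19% of tested genes, nor in any of the 25 members, against 2.61% of all listed genes. Without knockout 3 the groups still overlapped in all 25 members, against 4.27% of listed genes that separated. In that comparison 0 of 6 tested members were called, against 2.31% of 14747 genes.

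With no filter on low counts, 1 of 25 members was called, Hoxd8 (adjusted p 0.0448), against 0.774% of 25050 genes, and 7 of 25 had an unadjusted p under 0.05, against 10.6%. When knockout 3 was left out as well, a setting chosen after seeing the data, edgeR called 5 of 25 members, all higher in knockout, against 2.9% of genes called in either direction and 1.07% called as higher. These were Hoxb8 (log2 fold change 2.09, SE 0.340, adjusted p 1.23e-06), Hoxb6 (1.29, adjusted p 0.00202), Hoxb7 (1.93, adjusted p 0.0350), Hoxc6 (2.73, adjusted p 0.0406) and Hoxd8 (adjusted p 0.000678), for which no fold is given since the wildtypes were at 0. All 5 belong to paralogs 6 to 8, the grouping added to the planned classes. For each of them knockout 1 lay at or below the lowest wildtype library, so these calls rest on knockouts 2, 4 and 5, and that of Hoxc6 on knockouts 2 and 4. In the authors' deposited table, adjusted p-values of the 25 members ran from 0.182 for Hoxd8 to 0.966 for Hoxd1.

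The other rows inside the clusters showed the loss in knockout 3 as well. The 12 rows that overlap or lie between the members had 55, 23, 35, 35 and 19 counts in wildtypes 1 to 5 and 13, 69, 3, 89 and 27 in knockouts 1 to 5. Scaled to depth this was 2.22 to 4.52 CPM in wildtypes and 0.396 CPM in knockout 3. Hoxb3os, the RNA opposite Hoxb3, had 0.698 to 1.16 CPM in wildtypes and 0.232, 0.911, 0.132, 1.10 and 0.732 CPM in knockouts, and its reads cannot be parted from those of Hoxb3.

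The summed level of 11 protein-coding genes beside the clusters was 104.7% of the mean of the others in knockout 3. Of these, 9 were tested and 0 were called by edgeR, against 1.18% of tested genes (1 with an unadjusted p under 0.05, against 14.8%). Cbx5, a heterochromatin protein gene near HoxC, had 283.2 CPM in knockout 3, and Hibadh, a metabolic gene near HoxA, had 48.7 CPM, against lowest values of 232.2 and 48.4 CPM elsewhere. Cbx5 alone made up much of the sum, and 2 neighbours, singled out after their values were seen, were lowest in knockout 3: Evx1 at 0.132 CPM against 0.244 to 0.785, and Ttll6 at 0.528 CPM against 0.645 to 1.98.

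The partners of Hox proteins summed in knockout 3 to 113% of the mean of the others. All 9 Pbx, Meis and Pknox genes were tested and 0 were called by edgeR, against 1.18% of tested genes. An unadjusted p under 0.05 was found in 2, against 14.8% of tested genes: Pbx4 (8.03 ± 0.718 CPM in wildtype and 9.16 ± 0.461 CPM in knockout, adjusted p 0.324) and Pbx3 (34.4 ± 3.29 and 29.6 ± 5.34 CPM, adjusted p 0.334). Meis1, singled out after its values were seen, had 8.44 CPM in knockout 3 against 16.8 to 23.2 CPM in the others.

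Of 20 Polycomb and Trithorax genes 0 were called by edgeR, against 1.18% of tested genes, and 1 had an unadjusted p under 0.05, against 14.8%. It was the H3K27 demethylase gene Kdm6b, with 60.1 CPM in wildtype and 50.3 CPM in knockout. Of 18 listed genes for retinoic acid handling and hindbrain segmentation 13 were tested and 1 was called, against 1.18% of tested genes. Egr2, also called Krox20, which patterns hindbrain segments in the embryo and responds to activity in adult neurons, fell: wildtype libraries had 12.3 ± 1.39 CPM and knockout libraries 4.37 ± 1.57 CPM, with no overlap (n = 5 in either group). By edgeR the log2 fold change was -1.57 (adjusted p 0.000151). The median of those 13 genes was -0.085, that of the Pbx, Meis and Pknox genes -0.036 and that of the chromatin genes -0.023. Aldh1a2, which makes retinoic acid, had 10.7 CPM in knockout 3, inside the range of the other libraries.

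Markers of other regions were set beside the Hox level library by library. Knockout 3 had 12.7% of the mean of the other 9 for 4 glycinergic genes of the brainstem and cord, 12.4% for the cerebellar granule cell genes and 44.1% for the Purkinje cell genes. Of the 4 glycinergic genes, 3 were lowest there. Slc6a5, a glycine transporter gene, alone made up 67.7 of the 89.5 CPM of the glycinergic sum in the mean of the other 9. Knockout 3 had 70.4% for 7 midbrain and dopaminergic genes, of which 3 were lowest there. Among these 3, En2, a gene of the midbrain and cerebellum, was at 4.22 CPM against 34.4 to 40.8. The dopamine neuron genes Th and Slc6a3 were instead highest there, at 23.0 CPM against 11.4 to 19.3 and 21.2 CPM against 13.5 to 18.1. Knockout 3 had 98.6% for 5 serotonergic, 88.8% for 4 noradrenergic and 85.8% for 7 motor and cholinergic genes. It had 106% for 5 thalamic and 140% for 8 telencephalic genes. For genes of other cell types it had 83.4% for meningeal, 86.4% for choroid plexus, 88.9% for oligodendrocyte and 109.8% for endothelial genes. Phox2a of the noradrenergic list and Mnx1 and Calcb of the motor list were at 0 there, but all 3 were rare everywhere. Phox2a was also at 0 in wildtype 5 and knockouts 1 and 5, and at most 0.273 CPM elsewhere. Mnx1 was also at 0 in wildtypes 1, 2 and 5 and knockout 1, and at most 0.174 CPM elsewhere. Calcb ran from 0.232 to 0.654 CPM in the others. Tph2, the serotonin-making enzyme gene of the raphe, was at 12.4 CPM in knockout 3, inside the range of 10.02 to 13.8 CPM of the others.

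Knockout 1, the other library of low Hox level, did not share the cerebellar loss. Its granule cell genes summed to 1523 CPM, the highest of all libraries, and its glycinergic genes to 68.9 CPM, below the 83.9 CPM of the lowest wildtype. Its list of 11 meningeal and fibroblast genes was the lowest of all at 175.7 CPM, with knockouts 3 and 4 next at 195.6 and 197.1 CPM, against 238.6 to 268.7 CPM in wildtypes. In knockout 2 the 9 genes of muscle and peripheral nerve summed to 33.9 CPM against 8.06 to 17.9 CPM in the others, and in knockouts 4 and 5, which shared its Hox pattern, to 9.28 and 8.06 CPM. The part of these marker genes in the Hox levels was not tested.

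**Figure D4:**
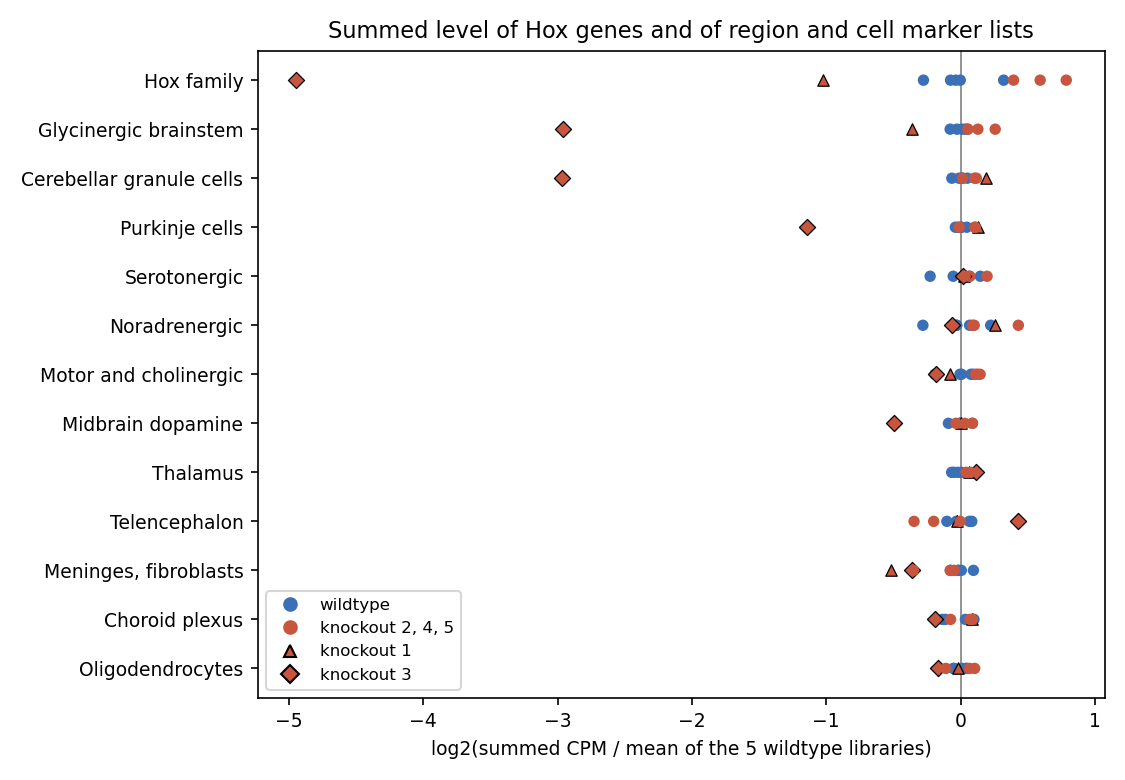
Summed level of the Hox family and of 12 marker lists (rows) in each library, as log2 of the ratio to the mean of the 5 wildtype libraries (horizontal axis); circles are wildtype (blue) and knockouts 2, 4 and 5 (red), the triangle is knockout 1 and the diamond knockout 3. Knockout 3 lies far left for the Hox family and for glycinergic and cerebellar genes, and knockout 1 lies left for the Hox family but right for granule cell genes.

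With the Hox genes themselves set aside, since they make up the sum, both abundant genes of the glycinergic list were among the 3 transcripts most like the Hox sum. Across the 10 libraries and among these other genes, the Pearson correlation of log2 CPM with the log2 Hox level was highest for Glra1, a glycine receptor subunit gene (r = 0.987), then Mmp23, a metalloproteinase gene (r = 0.984), and Slc6a5, the glycine transporter of inhibitory nerve endings (r = 0.982). These correlations are descriptions over 10 libraries that share 1 low point, knockout 3. At least 0.9 was reached by 251 of 14526 genes over all libraries and by 8 without knockout 3, counting Hox genes.

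Slc6a5 ranked first without knockout 3, with r = 0.977 over 9 libraries. Its rank order over the 10 libraries was identical to that of the Hox sum (Spearman's rho = 1). Some wildtypes were nearly tied, such as wildtypes 2 and 3 for Slc6a5 and wildtypes 1 and 2 for the Hox sum. The order among wildtypes is therefore uncertain. Slc6a5 had 67.6, 63.7, 63.6, 68.5 and 68.6 CPM in wildtypes 1 to 5 and 53.5, 73.3, 4.62, 79.2 and 70.9 CPM in knockouts 1 to 5. Knockouts 2, 4 and 5 lay above all wildtypes and knockouts 1 and 3 below, as for the Hox sum, over a narrower range. Glra1 had 18.1 to 20.5 CPM in wildtypes and 12.6, 20.5, 5.80, 23.2 and 19.5 CPM in knockouts, and r = 0.926 without knockout 3.

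The sums of the cerebellar lists followed the Hox sum over 10 libraries and not over the 9 without knockout 3. The granule cell list had r = 0.946 over 10 libraries and -0.16 over 9, and the Purkinje list 0.939 and -0.037. The glycinergic list, whose sum is mostly Slc6a5, kept 0.974 over 9 libraries, and the motor and cholinergic list had 0.760. Cbln3, a granule cell gene, had 351.0 CPM in knockout 1 and 2.51 CPM in knockout 3, against 272.0 to 287.5 CPM in wildtypes. Paralogs 1 to 4 and paralogs 5 to 8 correlated at r = 0.978 over 10 libraries and 0.853 over 9.

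Among the other genes of the 15 most like the Hox sum, Prph, which encodes the peripherin filament of motor and sensory neurons, had 1.45 CPM in knockout 3 against 4.52 to 6.65 CPM, and Reln, an extracellular protein gene strong in cerebellar granule cells, had 134.7 against 178.1 to 198.8 CPM. Kif26b, Mab21l2, Pkp3, Col18a1, Cnksr3, 1500016L03Rik, Slc1a6, Svep1, Akap12 and Tbc1d4 completed the list. The 5 most opposite genes were Kcnip2, Nrsn1, Hpcal4, Phactr1 and 5330417C22Rik, with r from -0.97 to -0.95. Hpcal4, a neuronal calcium sensor gene, had 887.7 CPM in knockout 3 against 606.4 to 684.4 CPM in the others.

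**Figure D5:**
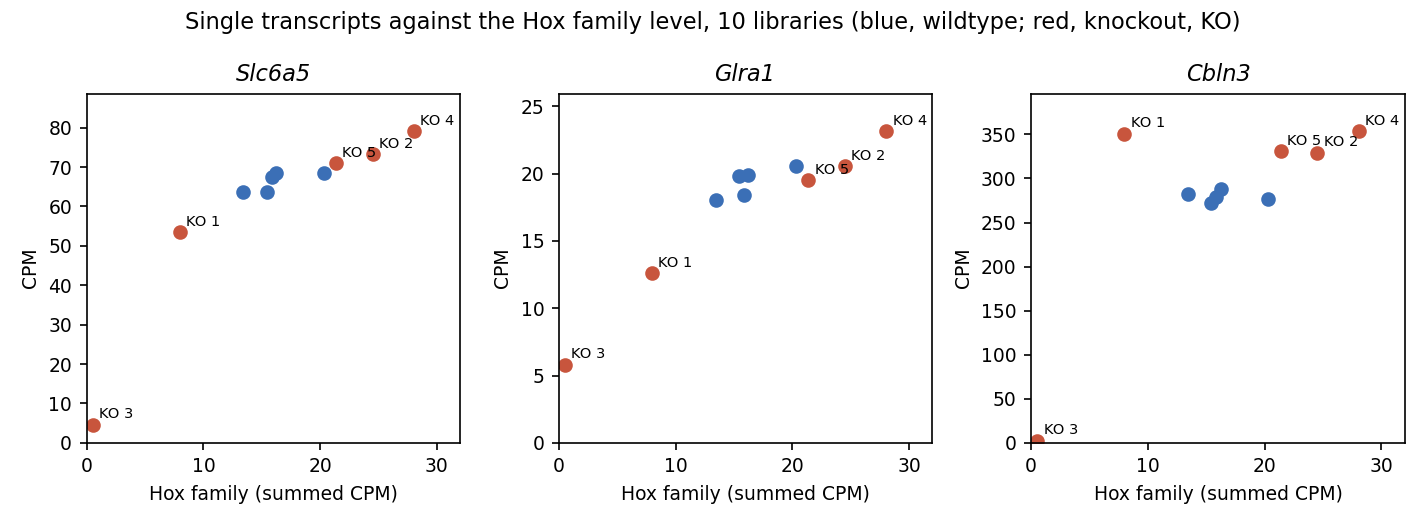
Level of Slc6a5, Glra1 and Cbln3 (vertical axes, CPM) against the summed Hox level (horizontal axis, CPM) in 10 libraries; wildtype in blue, knockout in red and labelled. Slc6a5 has the same order of libraries as the Hox sum, while Cbln3 is low in knockout 3 alone and is 351.0 CPM in knockout 1.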

How the data were processed

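RNA of 10 mouse brains, 5 per genotype, was sequenced from polyadenylated RNA. The authors deposited 1 table of counts per gene and library, with an adjusted p-value per gene. The submitters' processing notes name TopHat2 2.0.6, TopHat, HTSeq, edgeR and limma, while the settings, the genome build and the strand of counting are not given in the sources used here. A further 10 columns of per-library values had lost their decimal points and were not used. Some single genes are not reported here. Members, gene lists and tests were chosen with earlier results of these data known.

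The counts were analysed in R 4.3.3. Genes were kept by filterByExpr (minimum count 10, total 15), TMM scaling gave factors of 0.982 to 1.01, and edgeR 4.0.16 fitted genotype as the only term, with p-values adjusted by Benjamini-Hochberg over the 14526 genes tested. The common biological coefficient of variation was 0.071. The 20 lists held 194 genes. Hox counts were summed before scaling, and intervals are 95% exact Poisson or Clopper-Pearson intervals. Correlations used log2 CPM with a prior count of 2. Exon lengths came from GENCODE M21 (24 members matched) and promoters from RefSeq GRCm38.p6. Every Hox member was to be accounted for, with values in each library for the 8 with the most counts and any that passed the test or stood apart in 1 library. Other genes named were, by rule, 2 by p and 2 by abundance from each list, and the 15 most and 5 least like the Hox sum, members left out. Meis1, Phox2a, Mnx1, Calcb, Evx1, Ttll6 and the second row named Cbln1 fell outside the rule and were named after their values were seen. Alternatives were other scalings and filters, limma-voom 3.58.1, DESeq2 1.42.0, the replicate block, the 7 libraries with at most 11479995 counts, and each library left out. On simulated counts for 14526 genes, the test called 86 of 100 genes with a 1.5-fold change, 99 of 100 with a 2-fold change and 19 of 14326 with none. The changed genes were drawn at random from all tested genes. These rates therefore do not show how often such a change would be called in genes as rare as the 5 tested Hox genes.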

Additional observations from a re-analysis of the deposited data

Results flagged for a closer look

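In groups of 5 libraries, a library was noted when its gap to the nearest other exceeded 0.71 of the group's range (Dixon's test). This was applied to 64 groups, of which 7 were noted, and chance gives about 1 in 20. Wildtype 5 stood above the other wildtypes in paralogs 5 to 8, at 10.97 CPM against 6.58 to 7.55, with Hoxa5 the main contributor at 4.55 CPM. Knockout 3 stood below the other knockouts in cerebellar granule cell genes (171.4 CPM against 1352 to 1523), Purkinje cell genes (1051 CPM against 2307 to 2539) and midbrain genes (51.2 CPM against 70.6 to 76.8). Within the midbrain list En2 was low in knockout 3, while Th and Slc6a3 were highest there. The Hox sum of knockout 3 was not noted because knockout 1 was low as well. Knockout 4 was above the other knockouts in serotonergic genes, at 33.2 CPM against 29.3 to 30.4. Genes of muscle and peripheral nerve were at 17.9 CPM in wildtype 3 against 9.60 to 11.2, and at 33.9 CPM in knockout 2 against 8.06 to 14.6.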

How the results depend on the processing

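The number of Hox members called stayed at 0 in 17 of 19 alternatives, and was 1 with no low-count filter and 5 with no filter and without knockout 3. Each of the 17 tested only 5 or 6 of the 25 members. DESeq2, which is 1 of the 17, gave no adjusted p for its 5, so none could be called there. Over all genes, 171 calls became 261 with DESeq2, 90 with the replicate block, 31 in the 7 libraries with at most 11479995 counts, 76 to 341 with 1 library left out, and 723 with no filter and without knockout 3. Genes of the lists called, 1 in the main test, were 3 with no filter, 3 with DESeq2, 2 in the shallower libraries, 1 to 5 with 1 library left out and 22 with no filter and without knockout 3. Libraries with the same replicate number had deviations that correlated at -0.14 to 0.089, so the numbers were not taken to pair them.

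The sign of small log2 fold changes turned. Hoxb5 (0.19) had -0.24 with limma-voom, -0.070 with DESeq2, -0.019 with the replicate block, -0.93 in the shallower libraries and -0.19 to 0.40 with 1 library left out. Hoxa5 (0.23) had -0.26, -0.027 and -0.74 with limma-voom, with DESeq2 and in the shallower libraries, and -0.038 to 0.49 with 1 left out. Hoxc4 ran from -0.56 to 0.060 and Hoxb4 from -0.54 to 0.064 with 1 left out, and with no filter and without knockout 3 they had 0.055 and 0.061. The cause was not tested. Hoxd3 stayed negative in all 19 alternatives. The difference of the family sums, 0.239 CPM, ran from -2.65 to 4.23 CPM with 1 library left out and was -6.38 CPM in the shallower libraries. Each of these extremes was within the knockout SD of 11.7 CPM and beyond the wildtype SD of 2.51 CPM. That of paralogs 5 to 8, 1.95 CPM, was -0.12 CPM without knockout 4 and -2.51 CPM in the shallower libraries. Genes with a correlation of at least 0.9 with the Hox sum numbered 251, and 10 by Spearman's rho, 37 without knockouts 1 and 3, and 8 to 371 with 1 library left out.

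With 4 to 662 Hox counts per library, single members below about 20 counts in all cannot be ordered between libraries.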
